A study of Mus musculus with 4 samples.

Results

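The genes of the proteasome and its activators were followed in endothelial cells (ECs) with and without ADAR1. They were 36 genes chosen by name from the 24421 genes of the count tables. The list held the 7 alpha and 7 beta subunits of the core, 9 subunits of the base, 8 subunits of the lid, the paired activator subunits Psme1 and Psme2, the other activators Psme3 and Psme4, and the assembly chaperone Psmd5. The inducible catalytic subunits of the immunoproteasome, Psmb8, Psmb9 and Psmb10, were left off that list and are given for comparison.

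ECs came from 2 inducible ADAR1 knockout (i-KO) mice of separate litters, named EC1 and EC2, both male, 2 weeks old and of strain C57/BL6. Lung ECs of each mouse were cultured, and 1 culture per mouse was treated with 4-OH-tamoxifen (TM) to cut out part of the Adar gene while the other was not induced (CON). Both groups therefore carried the same floxed gene and Cre, n was 2 libraries per group, and the groups were paired by mouse. The promoter that drives the inducible Cre was not given in the sources used here. No wild-type culture treated with TM was among the libraries, so the response to the drug and to the loss of ADAR1 cannot be told apart. The p-values measure the spread between these 4 libraries.

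The proteasome is the protease of the cytosol and nucleus that takes apart proteins marked with ubiquitin. Its barrel-shaped core is built of outer rings of alpha subunits, which form the gate, and inner rings of beta subunits, of which Psmb5, Psmb6 and Psmb7 hold the active sites. The regulatory particle caps the barrel: the base unfolds the substrate with the ATPases Psmc1 to Psmc6, and the lid removes ubiquitin through Psmd14. Other caps work without ubiquitin. PA28 alpha and PA28 beta, from Psme1 and Psme2, form a mixed ring known for its role in making peptides for MHC class I and for its induction by interferon, whereas PA28 gamma, from Psme3, forms a nuclear ring of its own and PA200, from Psme4, is a single large nuclear activator.

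Levels were read in 2 ways. The main measure was exonic depth, the median number of reads over the sites in a gene's exons at which a library lists an altered base, scaled to 100000000 total reads of that library ("scaled depth"). Being a depth per base, it does not grow with the length of a gene. It is read only at listed sites, which differ between genes and libraries, and what this does to comparisons between genes was not tested. The other measure was the deposited gene count. Only 0.823% to 0.858% of each count table's total fell on genes, so that proteasome genes had from 0 to 333 counts each, while 3 to 68 exonic sites (median 15) were listed for each of them in every library.

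Adar, the targeted gene, was read first. Exons 12 to 14 of its transcript with 15 exons lie in the deleted part. There EC1 had 3 listed sites in CON and 0 in TM, and scaled depth in EC2 was 118 in CON (1 site) and 31.6 in TM (2 sites). A base that is not listed may still have been read, so the 0 is not a depth. In exons 1 to 11 scaled depth was 115 in CON against 504 in TM for EC1, and 123 in CON against 483 in TM for EC2. All 12 endothelial markers were measured in every library, and the depth of all 12 was lower in TM within each mouse, beside a background of 37.2% of all genes tested. Their summed scaled depth went from 21020 to 17215 in EC1 and from 26477 to 18509 in EC2, and of the 12 only Cldn5 passed the test. Their summed raw counts went opposite ways in the mice, with 1547 in CON against 1305 in TM for EC1, and 1356 in CON against 2243 in TM for EC2. Of the 10 leukocyte markers, 1 to 4 had an exonic site in each library, Cd68 and Lyz2 among them, while Ptprc, Adgre1 and Cd3e had none in any. Their summed scaled depth was 20.9 to 36.8. Their summed raw counts were 110 in CON against 105 in TM for EC1, and 89 in CON against 124 in TM for EC2. Cd79a held 23 to 35 of these and Csf1r 50 to 63, although an exonic site of either gene was listed only in EC2 TM. The summed scaled depth of 8 epithelial markers was 39.1 to 54.6. The summed depth of 10 fibroblast and smooth muscle markers was lower in TM in both mice, from 598 to 204 in EC1 and from 940 to 322 in EC2. Genes without a listed site entered this sum as 0, and 8 of the 10 genes were listed in CON against 5 in TM for EC1, and 9 in CON against 8 in TM for EC2. The counts of the same 10 genes did not fall, with 641 in CON against 644 in TM for EC1, and 637 in CON against 866 in TM for EC2, of which Tagln held 534 to 761. What part these shifts play in the results on proteasome genes was not tested. In bulk RNA, fewer cells of a type and less RNA per cell cannot be told apart.

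The question was whether the proteasome's parts moved together when ADAR1 was deleted. The PA28 alpha and beta pair rose about 3-fold in TM in both mice. No gene of the core, base or lid passed the main test, which fitted condition only and left out the pairing. With the mouse as a replicate block, Psmd1 of the base passed in depth, and Psmd6 of the lid and Psmb7 of the core in counts. Psmd6 also passed in depth with values centred on the median gene. All of these were lower in TM, and the backgrounds of those fits are given below. Psme1 rose 3.35-fold and Psme2 rose 3.15-fold in scaled depth. All 36 genes could be tested, and these 2 were the ones called by limma (Benjamini-Hochberg adjusted p at or under 0.05), against a background of 11.9% of the 6836 genes tested, 6.41% higher and 5.46% lower in TM. The number of proteasome genes called was thus not above the background. The difference between the pair and the other genes was not tested by itself, but the 95% intervals of the pair began at 1.17 and 1.09, above the upper ends of the other 34 genes except Psmb6, at 1.11. Of all genes tested, 134 had a larger rise than Psme1 and 156 a larger rise than Psme2.

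**Figure D1:**
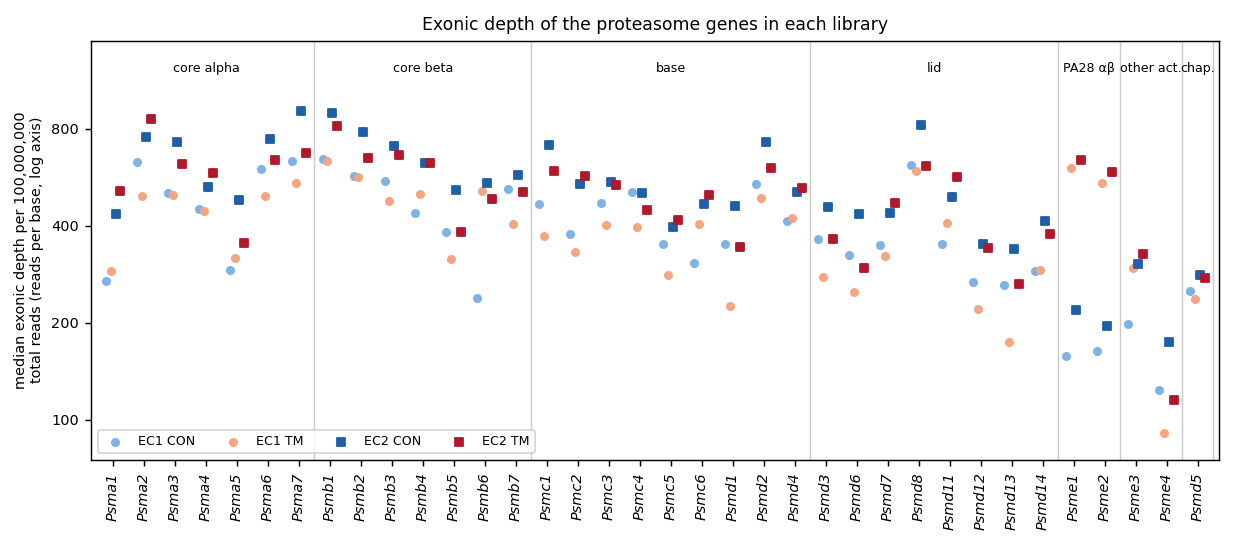
Scaled exonic depth (reads per base per 100000000 total reads, log axis) of the 36 proteasome genes in each of the 4 libraries, by subgroup (other act., Psme3 and Psme4; chap., the chaperone Psmd5). Circles are EC1, squares EC2, blue CON and red TM, each point being the median over a gene's listed exonic sites. Psme1 and Psme2 lie between 157 and 218 in CON and between 541 and 641 in TM, among the core genes.

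Psme1 encodes the alpha subunit of PA28 and lies at chr14:55578123-55581529 on the plus strand of mm10. Its scaled depth was 157 in CON against 605 in TM for EC1, and 218 in CON against 641 in TM for EC2. Both TM libraries were above both CON libraries, and the CON libraries of the 2 mice differed far less than TM from CON. The log2 change was 1.94 in EC1 and 1.55 in EC2, with a fitted mean of 1.75 (SE 0.28, 95% interval 1.17 to 2.32, adjusted p = 4.18e-05 by limma). At single sites in EC2, the 5 sites in CON had 288 to 341 reads and the 19 sites in TM had 892 to 2436, with no overlap. In EC1 they ranged from 163 to 363 reads over 11 sites in CON and from 343 to 1309 reads over 22 sites in TM, so that the edges of these ranges met.

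Psme2 encodes the beta subunit and lies close to Psme1, at chr14:55587441-55591113 on the minus strand. Its scaled depth was 163 in CON against 541 in TM for EC1, and 195 in CON against 588 in TM for EC2. Again both TM libraries were above both CON libraries. The log2 change was 1.72 in EC1 and 1.59 in EC2, with a fitted mean of 1.65 (SE 0.28, 95% interval 1.09 to 2.22, adjusted p = 6.89e-05 by limma). In no mouse did the sites of CON and TM overlap, with at most 285 reads in EC1 CON against at least 634 in EC1 TM, and at most 397 in EC2 CON against at least 1050 in EC2 TM.

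Because each library lists its own sites, the comparison was also made at the same bases. In EC1, 2 sites of Psme1 and 2 of Psme2 were listed in both libraries, and the median ratio of scaled depth in TM to CON at these sites was 3.84 for Psme1 and 4.23 for Psme2. In EC2 no site of either gene was listed in both libraries. The depths of the 2 subunits stayed close to each other, with a ratio of Psme1 to Psme2 of 0.963 in CON against 1.12 in TM for EC1, and 1.12 in CON against 1.09 in TM for EC2. PA28 alpha and beta are known to assemble into 1 ring, in which both are needed for full activity.

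Set against the core, the pair moved from well under the level of the core genes to about the same level. This ratio, a gene's depth over the median of the 14 core genes in the same library, does not depend on how libraries are scaled. For Psme1 it was 0.307 in CON against 1.22 in TM for EC1, and 0.328 in CON against 1.03 in TM for EC2. For Psme2 it was 0.319 in CON against 1.09 in TM for EC1, and 0.293 in CON against 0.942 in TM for EC2. The base, by contrast, had a median ratio of 0.811 (CON) and 0.802 (TM) in EC1, and of 0.766 (CON) and 0.838 (TM) in EC2. The lid had 0.657 (CON) and 0.575 (TM) in EC1, and 0.657 (CON) and 0.593 (TM) in EC2.

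**Figure D2:**
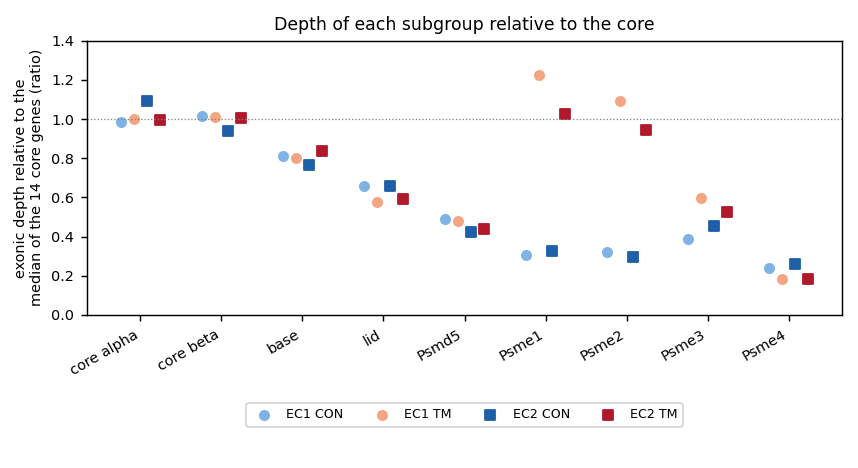
Ratio of exonic depth to the median of the 14 core genes in the same library (linear axis from 0, dotted line at 1), for the subgroup medians and for single activator genes and Psmd5. Each point is 1 library, circles EC1 and squares EC2, blue CON and red TM. Psme1 and Psme2 move from 0.293 to 0.328 in CON to 0.942 to 1.22 in TM, while the base and lid stay between 0.575 and 0.838.

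Neither of the other activators was called. Psme3, the gene of PA28 gamma, had a scaled depth of 198 in CON against 296 in TM for EC1, and 303 in CON against 327 in TM for EC2. It was higher in TM within each mouse, but the CON value of EC2 lay above the TM value of EC1, and the fitted log2 change of 0.34 (SE 0.28, 95% interval -0.24 to 0.92) had an adjusted p of 0.510 by limma. Psme4, the gene of PA200, had the lowest depth of all 36 genes, with 123 in CON against 91.0 in TM for EC1, and 174 in CON against 115 in TM for EC2. Both TM libraries were under both CON libraries, by a fitted log2 change of -0.51 (SE 0.29, 95% interval -1.10 to 0.07, adjusted p = 0.278 by limma). With values centred on the median gene of each library in place of the scaling by total reads, Psme4 passed the threshold with a log2 change of -0.59 (adjusted p = 0.0477 by limma), where the background of genes called was 21.1%.

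**Figure D3:**
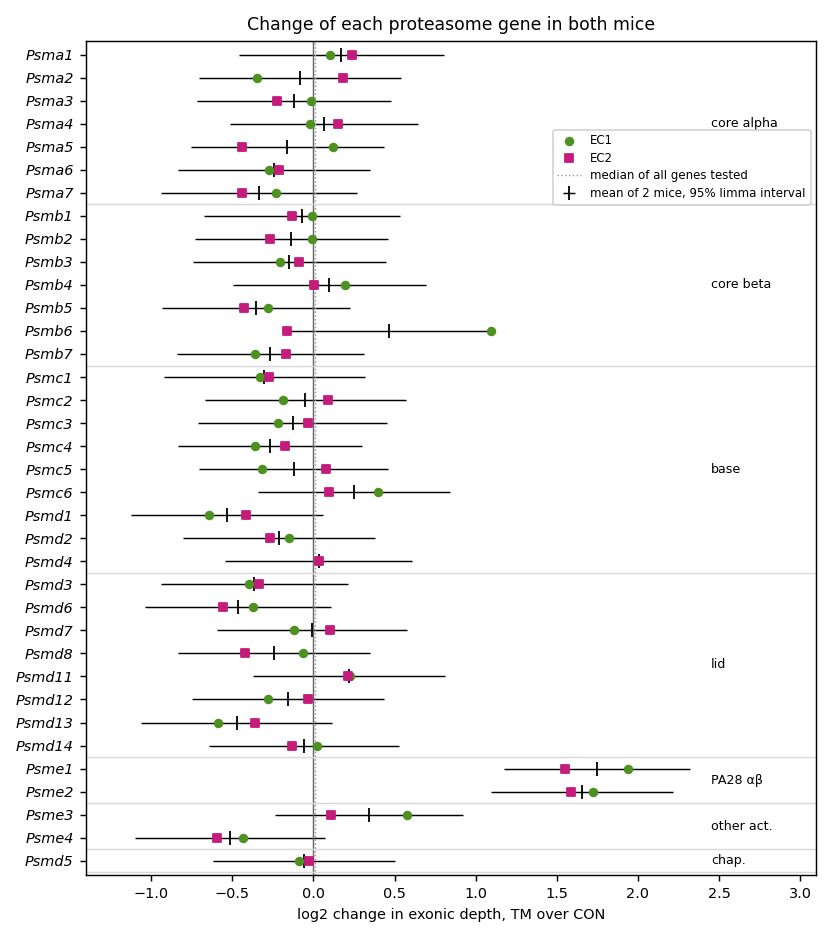
Log2 change in exonic depth, TM over CON, for each of the 36 genes, grouped as in the plot of depth by library. Circles are EC1, squares EC2, and ticks with bars are the fitted mean of both mice with its 95% interval from limma. The intervals of Psme1 and Psme2 lie between 1.09 and 2.32, and those of all 34 other genes include 0.

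Among the 14 core genes, none was called. The alpha subunits had a median log2 change of -0.12, from -0.34 for Psma7 to 0.17 for Psma1, and the beta subunits had a median of -0.14, from -0.35 for Psmb5 to 0.47 for Psmb6, beside a median of 0.01 over all genes tested. Of the core genes, 8 were lower in TM in both mice, 2 were higher in both and 4 went opposite ways. For 13 of the 14 the 95% interval of the log2 change lay within -1 to 1, so that changes of 2-fold or more fell outside it. Psmb6 was the exception.

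The constitutive active-site subunits are the ones that Psmb8, Psmb9 and Psmb10 replace in the immunoproteasome. Psmb5, which carries the chymotrypsin-like site, had a scaled depth of 382 in CON against 314 in TM for EC1, and 517 in CON against 383 in TM for EC2. Psmb7, which carries the trypsin-like site, had 519 in CON against 404 in TM for EC1, and 573 in CON against 509 in TM for EC2. Both were lower in TM within each mouse, by -0.35 for Psmb5 and -0.27 for Psmb7 in the fitted log2 change (SE 0.28 for each), and neither passed the test, with adjusted p of 0.491 and 0.627 by limma.

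Psmb6, which carries the caspase-like site, moved in opposite directions in the 2 mice. Its scaled depth was 239 in CON against 512 in TM for EC1, and 541 in CON against 484 in TM for EC2. Only EC1 CON stood apart, and its value rested on 5 sites with 14 to 764 reads, whereas the lowest site in the other libraries had 428 reads. The log2 change was 1.10 in EC1 and -0.16 in EC2 (fitted mean 0.47, SE 0.32, adjusted p = 0.392 by limma). Without EC2 CON the value was 1.06 and passed the threshold (adjusted p = 0.00856), and without EC1 CON it was -0.12. The difference between the mice was not tested.

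The extremes of the alpha ring were small. Psma7, which had a scaled depth of 636 in CON against 541 in TM for EC1, and 910 in CON against 671 in TM for EC2, was lower in TM within each mouse, but the mice overlapped. Psma1 had 268 in CON against 288 in TM for EC1, and 433 in CON against 512 in TM for EC2. Here the 2 mice differed more than TM from CON. The adjusted p was 0.538 for Psma7 and 0.800 for Psma1 by limma.

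None of the 9 genes of the base was called. Their median log2 change was -0.13, and 5 were lower in both mice, 2 were higher in both and 2 went opposite ways. Psmd1, a scaffold of the base that receives ubiquitin-binding proteins, had the lowest log2 change of the 36 genes, at -0.53 (SE 0.29, adjusted p = 0.267 by limma). Its scaled depth was 352 in CON against 225 in TM for EC1, and 459 in CON against 343 in TM for EC2, with both TM libraries under both CON libraries. With the mouse as a replicate block Psmd1 passed the threshold (adjusted p = 0.0479 by limma), where the background of genes called was 20.5%. By counts Psmd1 did not show this, with a log2 fold change of 0.064 (adjusted p = 0.956 by edgeR), or 0.080 (adjusted p = 0.940) with the mouse as a replicate block. At the sites that both libraries of a mouse listed, the median ratio of TM to CON was 0.678 over 5 sites in EC1 and 0.722 over 6 sites in EC2. Part of Psmd1 shares bases with exons of Htr2b on the other strand. Psmc6, an ATPase of the base, was at the other end with a log2 change of 0.25, and had a scaled depth of 307 in CON against 404 in TM for EC1, and 465 in CON against 498 in TM for EC2.

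The lid gave the lowest median of the larger subgroups. Its 8 genes had a median log2 change of -0.20, which was -0.20 in EC1 and -0.23 in EC2, and 5 were lower in both mice, 1 was higher in both and 2 went opposite ways. None was called. Psmd13 had the lowest value, -0.47 (SE 0.29, adjusted p = 0.332 by limma), with a scaled depth of 261 in CON against 174 in TM for EC1, and 339 in CON against 264 in TM for EC2. EC2 TM was only just above EC1 CON. Psmd11, a scaffold of the lid, had the highest, 0.22, with 350 in CON against 409 in TM for EC1, and 490 in CON against 568 in TM for EC2. Psmd6, another lid scaffold, had -0.46 and was called with values centred on the median gene (-0.54, adjusted p = 0.0311 by limma). Psmd5, which assists in building the base and leaves before the cap is complete, had 251 in CON against 236 in TM for EC1, and 281 in CON against 275 in TM for EC2, a log2 change of -0.06.

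Over all 36 genes, 20 were lower in TM in both mice and 8 were higher in both, beside backgrounds of 37.2% and 38.2% of all genes tested. The TM libraries lay under both CON libraries for 7 genes, beside a background of 25.1%, and above them for Psme1 and Psme2, beside 27.2%. For 29 of the 34 genes outside the pair, the 95% interval lay within a log2 change of -1 to 1. The small negative medians were not stable to the choice of libraries: with 1 library left out at a time, the medians of the core, the base, the other activators and Psmd5 took both signs, from -0.38 to 0.15 for the alpha subunits, and that of the lid ran from -0.40 to 0.00. The median of the PA28 pair ran from 1.52 to 1.88.

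**Figure D4:**
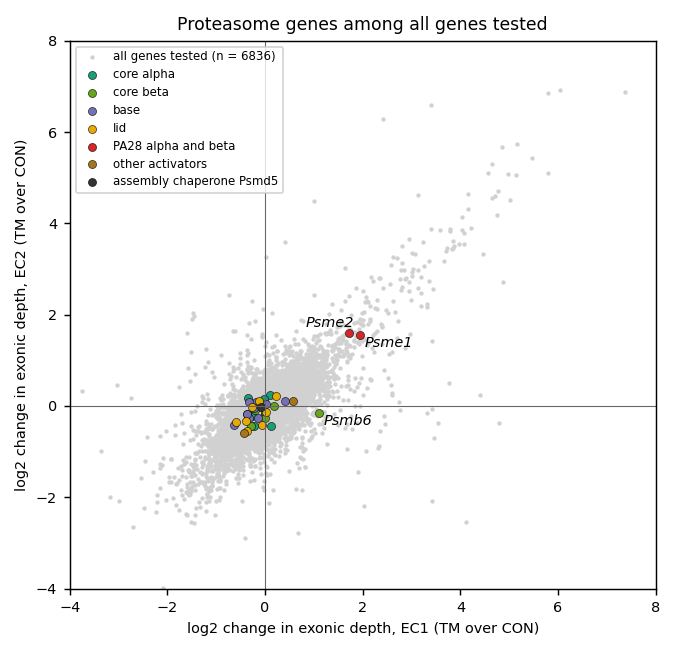
Log2 change in exonic depth, TM over CON, in EC1 (x axis) against EC2 (y axis), with all 6836 genes tested in grey and the 36 proteasome genes coloured by subgroup. Psme1 and Psme2 lie at 1.94 and 1.72 in EC1 and at 1.55 and 1.59 in EC2, Psmb6 lies at 1.10 and -0.16, and the other 33 genes lie between -0.64 (Psmd1) and 0.57 (Psme3) in EC1 and between -0.60 (Psme4) and 0.24 (Psma1) in EC2.

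The proteasome genes were well expressed throughout, and the mice differed. The median scaled depth of the 36 genes was 370 in CON against 403 in TM for EC1, and 507 in CON against 517 in TM for EC2, beside 114, 126, 144 and 145 over all genes tested. All 36 genes were above the median gene in CON, and 35 of 36 in TM. In both CON and TM, 35 of the 36 were higher in EC2 than in EC1, as were 86.1% of all genes tested in CON and 75.3% in TM.

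Gene counts were far sparser and did not track the depth closely: of the 24 genes tested in both, 13 changed in the same direction. The counts were a median of 0.341% of the read pairs that the depth over a gene's exons implies. The study states that its pipelines ran with default settings and does not name the strand setting of the counting. Which strand's reads the counts hold was not tested, so the counts may not measure the same RNA as the depth. Of the 36 genes, 24 passed the filter on low counts, and none was called by edgeR, beside a background of 7.75% of the 7899 genes tested (4.39% higher and 3.35% lower in TM). DESeq2 also called none of the 24, beside 413 of the 7899 genes. By edgeR, 5 of the 24 had an unadjusted p under 0.05, a share close to that of 1621 among the 7899 genes. Psme1 had 21 counts in CON against 61 in TM for EC1, and 34 in CON against 81 in TM for EC2, both TM libraries above both CON libraries, with a log2 fold change of 1.02 (SE 0.39, adjusted p = 0.112 by edgeR). Part of Psme1 shares bases with an exon of Emc9 on the other strand. Psme2 had 0, 7, 2 and 11 counts in the same order and did not pass the filter.

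Psme3 had a larger change in the counts than in the depth, a difference that was not tested. It had 26 counts in CON against 62 in TM for EC1, and 31 in CON against 94 in TM for EC2, a log2 fold change of 1.09 (SE 0.38, adjusted p = 0.0702 by edgeR). Psmd6 and Psmb7 were at the other end, with log2 fold changes of -1.08 (adjusted p = 0.0916) and -0.86 (adjusted p = 0.112). With the mouse as a replicate block, 4 genes were called by edgeR, beside a background of 15.0%: Psme1 (1.03, adjusted p = 0.0407) and Psme3 (1.09, adjusted p = 0.0225) were higher in TM, and Psmd6 (-1.08, adjusted p = 0.0429) and Psmb7 (-0.87, adjusted p = 0.0165) were lower. Psmb7 shares bases with exons of Nek6 on the other strand.

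**Figure D5:**
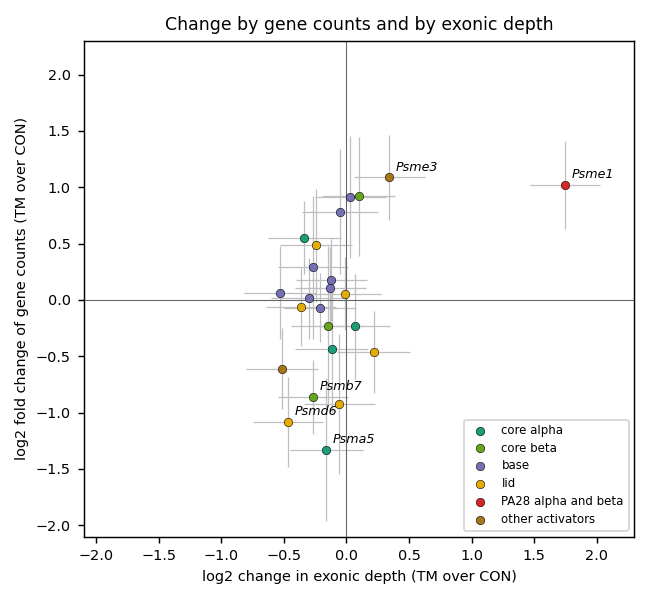
Log2 fold change of gene counts (y axis, edgeR) against log2 change in exonic depth (x axis, limma), TM over CON, for the 24 proteasome genes tested in both, with standard errors as bars. Psme1 is at 1.75 by depth and 1.02 by counts, and Psme3 at 0.34 by depth and 1.09 by counts.

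Other genes of the pathway were read from a list of 33, of which 32 were found and 23 could be tested in depth. Of these 1 rose and 0 fell, beside backgrounds of 6.41% higher and 5.46% lower in TM over all genes tested. The number called was thus not above the background. The riser was Uba7, the activating enzyme of the ubiquitin-like modifier ISG15, whose scaled depth was 41.0 in CON against 292 in TM for EC1, and 43.2 in CON against 269 in TM for EC2 (log2 change 2.71, SE 0.28). Uba1, the main activating enzyme of ubiquitin itself, had 789, 849, 911 and 964 in the same order and was not called. Pomp, the chaperone that matures the core, had 537 in CON against 308 in TM for EC1, and 783 in CON against 447 in TM for EC2, a log2 change of -0.81 that missed the threshold (adjusted p = 0.0742 by limma). Psmd9, an assembly chaperone of the base, went the other way by about as much, with 48.1 in CON against 128 in TM for EC1, and 102 in CON against 126 in TM for EC2, a log2 change of 0.85 (adjusted p = 0.0760 by limma). Nfe2l1, the transcription factor known to raise proteasome genes when the proteasome is inhibited, had a log2 change of 0.46 (adjusted p = 0.348 by limma).

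The immunoproteasome subunits had few or no listed sites in CON and could not be tested in depth. Psmb8 had a scaled depth of 34.6 in CON (1 site) and 608 in TM for EC1, and 46.3 in CON (2 sites) and 619 in TM for EC2. Psmb9 had no exonic site in CON and scaled depths of 114 and 199 in TM of EC1 and EC2. Psmb10 had 43.6 in CON (1 site) and 532 in TM for EC1, and no site in CON and 547 in TM for EC2. Against the constitutive subunit that it replaces, Psmb8 was at 0.0906 times Psmb5 in CON and 1.93 times in TM for EC1, and at 0.0896 times in CON and 1.62 times in TM for EC2. Psmb10 was at 0.0839 times Psmb7 in CON and 1.32 times in TM for EC1, and at 1.08 times in TM for EC2. Psmb9 stayed under its partner, at 0.222 times Psmb6 in TM of EC1 and 0.412 times in TM of EC2. By counts, Psmb8 and Psmb9 had 0 counts in both CON libraries and were called by edgeR, with 13 and 24 counts of Psmb8 and 13 and 23 of Psmb9 in TM of EC1 and EC2. Both genes passed the filter on low counts only through the TM libraries, so these calls are no separate evidence of a rise. Psmb10 had 24 counts in CON against 70 in TM for EC1, and 33 in CON against 86 in TM for EC2, a log2 fold change of 1.12 that missed the threshold (adjusted p = 0.0678 by edgeR) and was smaller than its difference in depth.

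The start regions of the genes were searched for 3 short motifs on both strands, in windows from 250 bases before to 50 bases after the start, held for 30 of the 36 genes in RefSeq (GRCm38.p6). The interferon-stimulated response element, read as a pair of GAAA blocks with 2 bases between them, was matched in 3 of the 30 genes and in 3.43% of 32817 windows of all genes. The 3 genes were Psme1, Psmb3 and Psmd4. Psme2, which rose with Psme1, had no match, and Psmb3 and Psmd4, which had a match, were not called. The gamma-activated site TTCNNNGAA was matched in 1 gene, Psmd2, beside 8.29% of all windows, and the antioxidant response element TGANNNNGC in 17 of 30, beside 41.3%. A gene with several windows counted as matched if any of them held the motif. The backgrounds are shares of single windows, so they are not a like measure. These are matches of letters only.

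The match of Psme1 is shown because Psme1 is the gene of this group with both a rise and a match. It lies at bases 10 to 19 counted from 1 at the annotated start, within chr14:55578493-55578522 on the plus strand of GRCm38.p6, and the capitals mark the matched letters.
Psme1: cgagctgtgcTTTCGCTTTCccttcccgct

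RNA editing by ADAR1 turns adenosine into inosine, which is read as guanosine, so the sites of A-to-G change in the proteasome genes were counted. Among sites with 5 or more reads, of which 3 or more altered, and a rate between 0.05 and 0.95, 38 sites passed in CON and 21 in TM for EC1, and 39 in CON and 47 in TM for EC2, the last being the most deeply sequenced library. Most of them were intronic, with 29, 17, 28 and 39 in the same order. SINE elements, the short repeats that fold into double-stranded RNA, held 23 in CON against 9 in TM for EC1, and 24 in CON against 19 in TM for EC2, fewer in TM within each mouse, and this difference was not tested. Over all libraries 73 sites in 17 genes passed at least once, and 10 passed in all 4 libraries. Psmb7 held 16 of them, Psma3 held 10, and Psme1 and Psme2 held 1 each.

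Of the 10 sites that passed in every library, 4 lay in a SINE, 2 at Psma3 and 2 in an intron of Psmd6. The rest lay outside repeats, in introns of Psmb7, Psmc1 and Psmc3. Within each mouse their rates were higher in TM at position 38588523 of Psmb7 and at Psmc3. They were lower at position 38592839 of Psmb7, and went opposite ways in the mice at Psmc1. Such sites are part of the totals above, and whether they are edited by ADAR1 was not tested. Downstream of Psma3, at position 70995180 of chromosome 12 in mm10, the rate in EC1 was 0.40 in CON (10 of 25 reads, Wilson 95% interval 0.234 to 0.593) and 0.179 in TM (5 of 28, 0.0788 to 0.356). In EC2 it was 0.325 in CON (13 of 40, 0.201 to 0.480) and 0.0952 in TM (6 of 63, 0.0444 to 0.193). TM was lower within each mouse, and the intervals met in EC1 but not in EC2. At position 70994629, in the 3′ UTR of the same gene, the rates were 0.538 in CON (14 of 26, 0.355 to 0.712) and 0.536 in TM (15 of 28, 0.358 to 0.705) for EC1, and 0.762 in CON (16 of 21, 0.549 to 0.894) and 0.491 in TM (27 of 55, 0.364 to 0.619) for EC2. In the intron of Psmd6, at position 14118481 of chromosome 14, they were 0.429 (9 of 21, 0.245 to 0.635), 0.273 (6 of 22, 0.132 to 0.482), 0.421 (8 of 19, 0.231 to 0.637) and 0.214 (9 of 42, 0.117 to 0.359) in the same order. At these last 2 sites the intervals of CON and TM met in both mice. The intervals cover counting error only.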

How the data were processed

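RNA of 4 EC libraries was depleted of ribosomal RNA and sequenced as 101-base read pairs. The authors used Trimmomatic 0.38 for trimming and STAR 2.6.1a for alignment to mm10, and deposited raw counts per gene from HTSeq 0.11.2. Count totals were 131796753 to 207323870 per library, with 1095488 to 1778732 on genes and 92.8% to 93.9% on no gene, and summary rows were left out of the tests. The authors also deposited, per called variant site (BCFtools mpileup), reference and altered reads as counts. Depth is known only where a library lists an altered base, and strand is not separated.

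Counts were tested by the quasi-likelihood method of edgeR 4.0.16 after filterByExpr and TMM scaling, with DESeq2 1.42.0 as an alternative. Depth (sites annotated as exon, 5′ UTR or 3′ UTR, genes with at least 3 sites in every library) was tested with limma 3.58.1 (trend) on log2(scaled depth + 1), so that changes of low genes are understated. Both fits used condition only, over all genes, with Benjamini-Hochberg adjustment at 0.05, in R 4.3.3. Steps were tested on simulated data. Sites and annotation were handled in Python 3.11.15, with the annotation GENCODE vM21 (that of the authors is not given in the sources used here). A count of 0 allows up to 3 counts, or 1.69 to 2.74 CPM.

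Libraries with the same number come from the same mouse, per the study, and so are paired. The deviations of CON and TM of the same mouse from their group means correlated over genes with r = 0.163 for counts and 0.0998 for depth. Full values were set for the activators, the 3 constitutive active-site subunits, genes past the threshold and the extremes of each subgroup. Psmd6, Uba1, Pomp, Psmd9 and Nfe2l1 were named after their values were seen. The members and lists were chosen with earlier results of these data known. Of the alternatives, leaving out the 54 of 2255 exonic sites that lie in an exon of another gene was added after seeing the data.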

Additional observations from a re-analysis of the deposited data

How the results depend on the processing

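In depth, Psme1 and Psme2 stayed higher in TM and past the threshold in every alternative that could test them, with log2 changes of 1.51 to 1.98 and 1.53 to 1.78 when 1 library was left out. In counts, Psme1 stayed higher in TM (0.68 to 1.43) but passed the threshold only with the mouse as a replicate block (adjusted p = 0.0407) and missed it otherwise (adjusted p up to 0.578). Psme1 and Psme2 had too few sites to be tested in depth under the following settings. With at least 10 sites in every library, 0 of 22 proteasome genes were called, beside 539 of all genes tested. With only the sites shared by CON and TM of a mouse, 0 of 8 proteasome genes were called, beside 120 of all genes tested. With the mouse as a replicate block, 1184 genes and 4 proteasome genes were called in counts, and 1400 genes in depth, and beyond the calls given above the pairing changed no other call among them. Other counts of genes called in depth were 539 with at least 10 sites, 120 at shared sites, 375 to 905 with 1 library left out, and 1439 with values centred on the median gene, where 4 proteasome genes were called and the split of all calls moved from 438 higher and 373 lower to 570 higher and 869 lower. The median of the lid was -0.24 with at least 10 sites, -0.27 centred, -0.24 at shared sites and -0.22 without 3′ UTR sites, Psmd5 was -0.13 when centred, and the other activators were -0.52 at shared sites. With 1 library left out, the medians ran from -0.38 to 0.15 for the alpha subunits, -0.33 to 0.091 for the beta subunits, -0.37 to 0.076 for the base, -0.40 to 0.00016 for the lid, -0.36 to 0.19 for the other activators and -0.17 to 0.050 for Psmd5, while the median of all genes itself ran from -0.15 to 0.16. The depth changes of Psma1 (-0.24 to 0.59), Psmb6 (-0.12 to 1.06), Psmc6 (-0.052 to 0.55), Psmd11 (-0.023 to 0.46) and Psmd5 (-0.17 to 0.050) and the count change of Psmd1 (-0.13 to 0.28) took both signs. The lone library left in a group was assumed to vary like the other group. Apart from the fewer genes and samples tested, the causes were not tested. Low counts on genes limited the count comparison.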

Other observations

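At position 55580769 of chromosome 14 (mm10), in an exon of Psme1, EC2 CON had 152 altered reads of 338 (rate 0.450, Wilson 95% interval 0.398 to 0.503). The site was listed in no other library, including EC2 TM of the same mouse, in which the exonic sites of Psme1 had 892 to 2436 reads. All 7 passing sites of Psmb5 were listed in EC2 libraries and in neither EC1 library.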
